A study of Mus musculus with 2 samples.

Results

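The regions described here are 8195 DNase I hypersensitive peaks of the mouse cell line MN1 that lie in gene deserts and were found in both libraries of the series. A peak of replicate 1 was a member if it overlapped a replicate 2 peak by 1 bp or more and its centre lay outside every protein-coding gene and more than 100 kb from every protein-coding start site of GENCODE M21. Members make up 7.18% of the 114194 shared peaks on the 19 autosomes and X. Over all classes of peak, 67.1% of the 170217 replicate 1 peaks and 70.2% of the 162648 replicate 2 peaks overlapped a peak of the other library, and this overlap was part of the rule that chose the members. Of the members, 387 overlapped another member, so the list covers 7992 separate regions.

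The series holds 1 group, an immortalized line of strain B6NCrl that the labels name MN1, with 2 biological replicates of 1 library each. A mouse line of this name is known as a fusion of embryonic motor neurons with neuroblastoma cells, an origin the labels do not state. They give no treatment, and age, sex and developmental stage as unknown or not collected. A pair of Illumina instruments is named for replicate 2 and none for replicate 1. Nothing says whether the replicates came from separate cultures beyond their separate biosample records, and read depth is unknown because the files hold no read counts. With 1 group there is no contrast between conditions, so values are given per library and beside the other shared distal peaks, with no test.

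DNase-seq maps DNA that DNase I can cut in nuclei, which is mostly DNA where bound proteins have displaced nucleosomes, at promoters, enhancers and insulators. Gene deserts are long stretches without protein-coding genes. Some, such as those beside Sox9 and Myc, are known to hold enhancers that act on a gene far away, and others hold long noncoding RNA genes or imprinted microRNA clusters.

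For each of the motifs CTCF, CRE, NFI, RFX, PHOX2 and the E-box CAGCTG, the member with a match and the highest mean score rank over both libraries is printed to show what such a site looks like. All are on the plus strand of GRCm38 (mm10), 150 bases, with the match in capitals. The letters searched on both strands were CCANNAGNNGGCA (CTCF, the insulator protein), TGANTCA (AP-1, bound by Fos and Jun), TGACGTCA (CRE, bound by CREB), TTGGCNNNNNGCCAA (NFI), GTNNCCNNNGNAAC (RFX), TAATNNAATTA (PHOX2, paired-type homeodomain proteins of autonomic neurons) and CAGCTG (basic helix-loop-helix proteins). The TAATNNAATTA letters can hold the plain homeodomain letters TAATTA, as they do in the peak printed here. The letters TTCAGCACCNNGGACAG of REST, the repressor of neuronal genes, were in no member.
CTCF (chrX:11802656-11802805): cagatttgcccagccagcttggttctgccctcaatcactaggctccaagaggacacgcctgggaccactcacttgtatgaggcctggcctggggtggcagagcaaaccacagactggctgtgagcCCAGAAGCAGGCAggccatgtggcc
CRE (chr9:112053556-112053705): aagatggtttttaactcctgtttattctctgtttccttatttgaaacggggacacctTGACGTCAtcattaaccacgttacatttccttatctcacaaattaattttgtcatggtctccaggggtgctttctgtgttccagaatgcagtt
NFI (chr9:47358156-47358305): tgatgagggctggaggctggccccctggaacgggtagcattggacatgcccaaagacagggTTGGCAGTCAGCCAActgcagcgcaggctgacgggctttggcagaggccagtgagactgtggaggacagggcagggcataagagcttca
RFX (chr16:29915456-29915605): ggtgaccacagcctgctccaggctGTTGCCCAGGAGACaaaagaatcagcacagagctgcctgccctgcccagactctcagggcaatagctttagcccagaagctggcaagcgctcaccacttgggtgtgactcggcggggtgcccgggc
PHOX2 (chr8:128107116-128107265): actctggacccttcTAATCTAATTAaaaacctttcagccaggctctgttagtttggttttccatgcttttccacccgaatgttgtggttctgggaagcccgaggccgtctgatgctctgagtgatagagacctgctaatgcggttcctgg
E-box (chr14:24779256-24779405): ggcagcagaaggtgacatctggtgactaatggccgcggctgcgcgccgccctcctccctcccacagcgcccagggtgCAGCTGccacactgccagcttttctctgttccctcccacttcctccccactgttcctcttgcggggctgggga

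The CTCF site lies 278 kb from Bcor, which encodes a corepressor of BCL6, and scored 126 in replicate 1 and 120 in replicate 2. The CRE site, 132 kb from Arpp21, scored 114 and 111. The PHOX2 site lies 251 kb from Nrp1, a semaphorin and VEGF receptor, with scores of 140 and 126. No annotated exon underlies any of the 6 peaks; the NFI, RFX and E-box peaks fall within the noncoding genes Gm31816, Gm26569 and 4930428N03Rik.

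A second set of sequences comes from the imprinted desert between Snrpn and Ndn on chromosome 7, where shared peaks sit beside the hairpins of the Mir344 family. They are shown because the peaks resemble each other in sequence. CCAATCA, the letters bound by the CCAAT factor NFY, stands in the peak nearest to each of 10 hairpins (capitals, plus strand, either orientation). It stands there at least 2 times in 5 of the 10, among them the peaks printed for Mir344c, Mir344-2 and Mir344g. The hairpins are transcribed from the minus strand, so the hairpin lies to the left of or under the left end of each sequence.
Mir344c (chr7:61837396-61837545): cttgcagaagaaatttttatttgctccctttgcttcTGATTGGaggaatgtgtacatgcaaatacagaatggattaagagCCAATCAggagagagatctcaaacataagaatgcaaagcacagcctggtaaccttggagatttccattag
Mir344-2 (chr7:61940116-61940265): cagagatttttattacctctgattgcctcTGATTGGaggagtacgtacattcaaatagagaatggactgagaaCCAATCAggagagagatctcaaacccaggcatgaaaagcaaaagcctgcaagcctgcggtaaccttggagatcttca
Mir344g (chr7:61982336-61982485): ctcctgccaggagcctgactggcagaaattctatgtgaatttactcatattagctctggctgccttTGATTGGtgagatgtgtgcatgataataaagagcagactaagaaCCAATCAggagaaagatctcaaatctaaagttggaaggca
Mir344d-2 (chr7:61685316-61685465): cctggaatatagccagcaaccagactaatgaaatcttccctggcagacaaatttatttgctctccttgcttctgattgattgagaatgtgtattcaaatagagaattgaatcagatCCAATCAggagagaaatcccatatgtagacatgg

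Mature 3p arms of 5 of these microRNAs, from RefSeq on GRCm38.p6, follow with the seed (bases 2 to 8) in capitals. The Mir344, Mir344-2 and Mir344c hairpins share the seed GAUCUAG, the Mir344d-1, Mir344d-2, Mir344d-3 and Mir344e hairpins share AUAUAAC, and Mir344b and Mir344g have seeds of their own.
mmu-miR-344-3p: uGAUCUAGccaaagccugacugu
mmu-miR-344c-3p: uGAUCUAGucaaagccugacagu
mmu-miR-344d-3p: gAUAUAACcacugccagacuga
mmu-miR-344b-3p: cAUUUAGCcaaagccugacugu
mmu-miR-344g-3p: cAGGCUCUagccaggggcuuga

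The last set comes from Firre, a long noncoding RNA gene on X known for tandem local repeats. The sequences are printed because 34 of the 37 members in Firre share a word of 16 letters with another place in the same run of peaks. Capitals mark the commonest of these words, which was found at 8 places.
Firre (chrX:50566476-50566625): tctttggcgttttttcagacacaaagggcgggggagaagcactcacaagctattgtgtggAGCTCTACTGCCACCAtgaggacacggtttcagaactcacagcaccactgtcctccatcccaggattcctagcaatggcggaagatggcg
Firre (chrX:50580316-50580465): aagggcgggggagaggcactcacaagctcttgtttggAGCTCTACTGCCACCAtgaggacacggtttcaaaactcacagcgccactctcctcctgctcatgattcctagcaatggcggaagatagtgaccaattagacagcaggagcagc
Firre (chrX:50590816-50590965): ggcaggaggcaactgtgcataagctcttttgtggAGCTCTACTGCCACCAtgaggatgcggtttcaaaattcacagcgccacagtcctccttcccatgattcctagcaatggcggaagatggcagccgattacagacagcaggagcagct

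Shared peaks thinned out with distance from genes. Deserts cover 774.4 Mb, 30.3% of the assembled sequence of these chromosomes, and hold 10.6 shared peaks per Mb. The near intergenic sequence, 1 to 100 kb from a start site, holds 43.9 per Mb and coding gene bodies 44.9 per Mb. The decline began outside the deserts and went on within them, from 75.1 per Mb at 1 to 5 kb and 29.0 at 50 to 100 kb to 19.8 at 100 to 150 kb, 7.83 at 300 to 500 kb and 2.23 beyond 1000 kb.

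**Figure D1:**
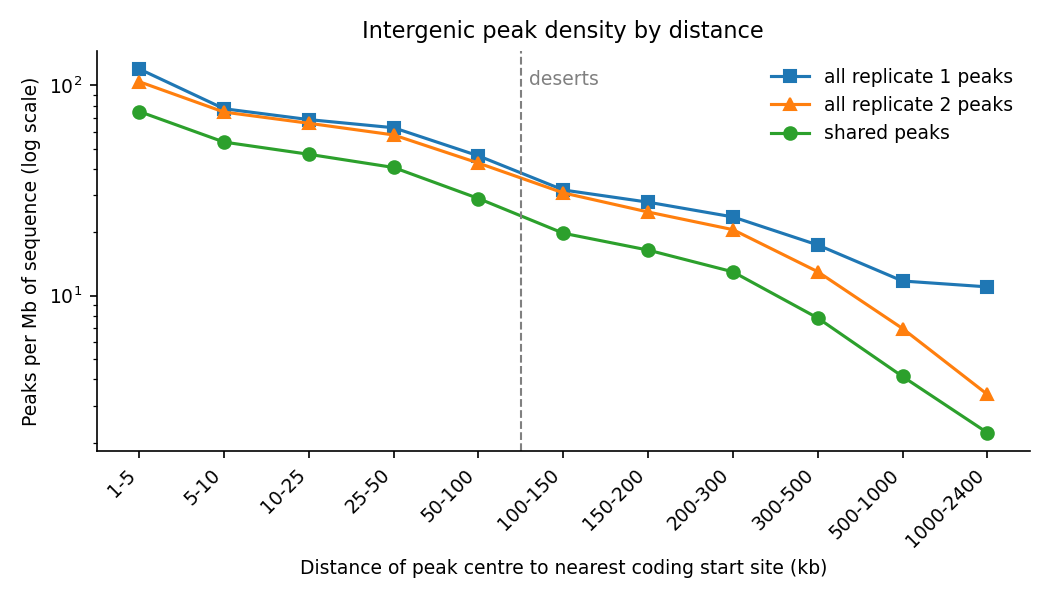
Peaks per Mb of intergenic sequence (log scale) in bins of distance from the nearest coding start site, for all peaks of each library and for shared peaks of replicate 1. Shared peaks fall from 75.1 to 2.23 per Mb with no step at the 100 kb limit (dashed line), and the libraries separate in the last bins, where replicate 1 stays at 11.01 per Mb.

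The libraries parted in the most remote sequence. Replicate 1 held 31.8 peaks per Mb at 100 to 150 kb and 11.01 beyond 1000 kb, whereas replicate 2 held 30.8 and 3.39. The share of replicate 1 peaks that overlapped a replicate 2 peak fell from 62.3% to 20.3% between these bins, and the share of replicate 2 peaks that overlapped replicate 1 was 64.6% and 67.8%. Dense blocks of peaks that occur in 1 library (36 in replicate 1 and 2 in replicate 2) held 862 of the 15879 replicate 1 desert peaks and 3 members. Without these blocks 54.6% of replicate 1 desert peaks overlapped replicate 2, against 51.6% with them.

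Members lay a median of 195 kb from the nearest coding start site, with quartiles of 137 and 309 kb. Beyond 500 kb there were 840 members (10.3%), beyond 1 Mb 161, and beyond 2 Mb 14. The 5 farthest are all on chromosome 8 in the desert between Tenm3, a teneurin adhesion protein, and Aga, a lysosomal enzyme. The farthest, at chr8:51205476-51205625, lies 2306176 bp from Aga and scored 88 and 59, above the members' medians. The limit of the rule cuts a continuum: 750 shared intergenic peaks at 90 to 100 kb had median scores of 56 and 41, and 675 members at 100 to 110 kb had 58 and 41. The 5 members nearest the limit, at 100029 to 100045 bp, scored 24 to 113 in replicate 1, and the 5 peaks just outside the rule, at 99907 to 99974 bp, scored 30 to 108.

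The deposited score, which runs from 1 to 150 and was used to rank peaks within a library, was lower in deserts than in other distal sequence. Members had a median score of 52 in replicate 1 (quartiles 37 and 75, range 5 to 146) and 37 in replicate 2 (quartiles 25 and 58, range 1 to 146). As ranks within all peaks of the library, these are medians at percentile 53.7 and 47.3, against 60.8 and 57.5 for the shared distal peaks outside deserts. The top 10% of the library's peaks took in 388 members in replicate 1. Both libraries ranked members alike, with a Spearman correlation of 0.805 over 8195 members, beside 0.864 over near intergenic and 0.83 over gene-body peaks. These points share 2 libraries, and no p is given.

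Fewer desert peaks than other distal peaks were found again in the other library, and within deciles of the score the order of the classes varied. Of all desert peaks, 51.6% of the 15879 in replicate 1 and 63.4% of the 12966 in replicate 2 overlapped the other library, beside 65.8% and 68.4% of other distal peaks. In the lowest decile of replicate 1 scores the share was 7.32% in deserts and 12.1% in other distal sequence, in decile 5 72.3% and 68.9%, and in the highest decile 97.7% and 98.7%. Desert peaks of replicate 1 without a partner had a median score of 24. In replicate 2 the desert share was the higher in most deciles, with 70.5% against 62.04% in decile 4. All members lay in hotspots, the authors' wider regions of enrichment, as did all shared near intergenic and gene-body peaks. The median hotspot width in replicate 1 was 354 bp for members and 372 and 332 bp for the other classes.

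**Figure D2:**
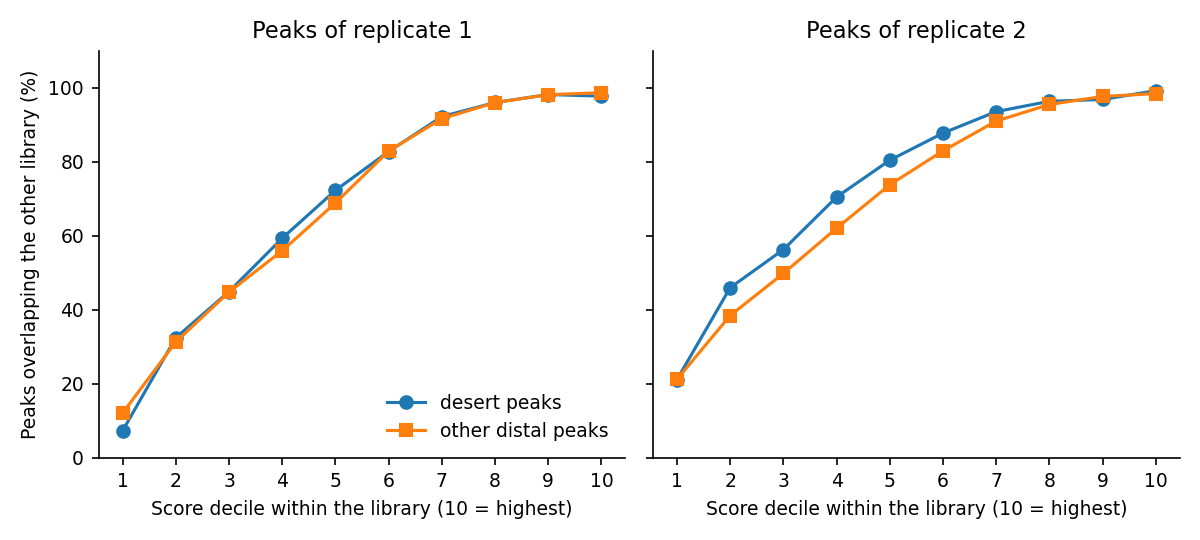
Percentage of peaks that overlap the other library, by decile of the score within each library, for desert peaks (circles) and other distal peaks (squares). In replicate 1 both curves rise together, from 7.32% and 12.1% in the lowest decile to 97.7% and 98.7% in the highest.

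Members were gathered in a minority of deserts. The rule leaves 1782 uninterrupted stretches with a median length of 194 kb, of which 930 (52.2%) hold a member. The 131 deserts with 20 or more members take up 12.8% of desert length and hold 54.4% of the members. Of 479 deserts of 500 kb or more, 173 have none.

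The desert between Rps24, a ribosomal protein gene, and Zmiz1, a transcriptional coregulator of the PIAS family, had most members and, among deserts of 500 kb or more, the highest density. At chr14:24591150-25359184 it held 90 members, 126 per Mb, from 121 replicate 1 and 135 replicate 2 peaks. Next came the Myc to Gsdmc desert (chr15:62087423-63708758) with 79 members. Their median scores of 70 and 48 are well above those of all members, and 22 of them lie in Pvt1, the lincRNA gene downstream of Myc. The Gfra2 to Gm9195 desert on chromosome 14 held 76 members and the Zfp608 to Gramd3 desert on chromosome 18 held 75. In the Snrpn to Ndn desert, 2.01 Mb long, there were 66. Cd83 to Jarid2 (65), Gadd45g to Diras2 (62), Glrx3 to Tcerg1l (62), H2al1j to Bcor (55) and Eipr1 to Myt1l (54) complete the 10 with most members. Jarid2 and Bcor encode Polycomb cofactors, and Myt1l a zinc finger protein of neurons.

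The 5 longest deserts without a member all border a gene of the adhesion and guidance list. The desert nearest to this list is long, 96.2 Mb for 101 genes. How many other long deserts border such a gene was not counted. The longest without a member is the 3.62 Mb between Dsel and Cntnap5a, a contactin-associated protein gene, where replicate 1 had 28 peaks and replicate 2 none. In the other 4 of the 5 longest without a member both libraries had few peaks: 5 and 4 between Tenm2 and Mat2b, 0 and 1 between Diaph2 and Pcdh19, 1 and 3 between Cdh2 and Dsc3, and 2 and 3 between Epha7 and Map3k7. The longest desert of all, the 4.47 Mb between Tenm3 and Aga, held 52 members. Tenm3 is also on the adhesion and guidance list. Between the protocadherin genes Pcdh20 and Pcdh9, 4.44 Mb held 3.

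Grouped by the nearest coding gene, the density of members differed among families. Desert nearest to genes of the transcription factor list (171 genes by symbol) held 842 members, 16.9 per Mb, and all other desert 10.1 per Mb. The order was the same for all peaks of each library (29.6 against 19.9 per Mb in replicate 1, 26.6 against 16.1 in replicate 2). Desert nearest to adhesion and axon guidance genes, 12.4% of the whole, held 3.49% of the members, or 2.97 per Mb. That desert is 96.2 Mb for 101 genes, beside 49.9 Mb for the 171 transcription factor genes. Density fell with distance from a start site, and no density by nearest gene, here or below, was matched for distance. Desert nearest to chemosensory receptor genes held 65 members, 16.7 per Mb, 40 of them next to Olfr1324, the coding gene nearest to Firre. Desert nearest to ion channel and receptor genes held 8.23 and that nearest to secreted signals 10.5 per Mb.

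**Figure D3:**
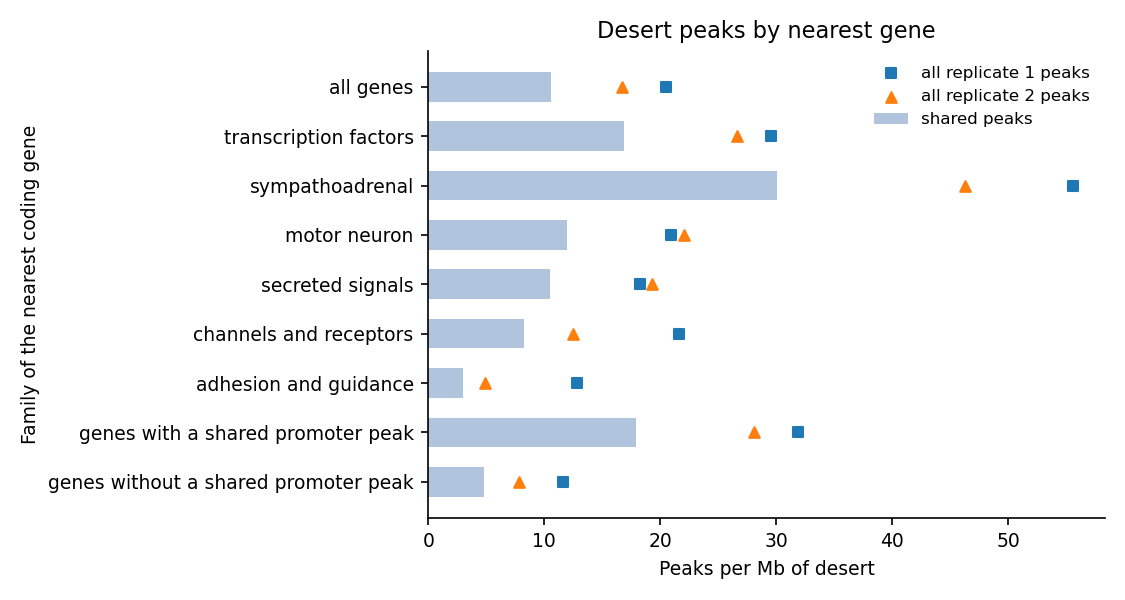
Peaks per Mb of desert by the family of the nearest coding gene; bars are shared peaks, squares all replicate 1 peaks and triangles all replicate 2 peaks. Desert nearest to the sympathoadrenal list is highest at 30.1 shared peaks per Mb and that nearest to adhesion and guidance genes lowest at 2.97, with all genes at 10.6. The families were not matched for distance from the start site.

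Within the symbol list of transcription factors, Myc, Sox9 and Sox11 were nearest to most members; over all genes Zfp608, a zinc finger gene outside that list, had 84, Zmiz1 54 and Trps1, a GATA-type factor also outside it, 43. Myc, a growth regulator, had 50 members at 112 to 903 kb, with scores from 22 to 131 (median 75) in replicate 1. Sox9, a regulator of cartilage, gonad and glia, had 49 at 121 to 838 kb. The lincRNA gene 2610035D17Rik, on one side of Sox9, holds 21 members, not all of them nearest to Sox9. Kcnj2, a potassium channel gene on the other side of Sox9, had 21. Sox11, a factor of immature neurons, had 39 members and no promoter peak shared by both libraries.

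Of the list of sympathoadrenal genes, those of the sympathetic neuron and chromaffin lineage, 8 are nearest to some desert, and that desert held 91 members, 30.1 per Mb. Besides Sox11, Mycn had 21 members, with scores up to 136 and 133, and Gata3 had 18. The list is small and overlaps the transcription factor list. Of the motor neuron list, 9 genes border 2.68 Mb of desert with 32 members (11.9 per Mb), 26 of them nearest to Isl1, a LIM homeodomain factor of motor and sympathetic neurons. Slc5a7, the choline transporter gene, had 4 members with replicate 1 scores of 76 to 122 and no shared promoter peak.

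Desert nearest to a gene whose own promoter had a shared peak was richer in members. It held 17.9 per Mb against 4.82 per Mb for genes without one, and 74.5% of all members in 44.0% of the length. Within the transcription factor list the values were 27.7 and 6.09 per Mb. Other genes with a promoter peak had 17.2. Adhesion genes had a shared promoter peak in 31.7% of cases, transcription factor genes in 46.8% and all genes next to deserts in 49.2%.

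Genes of secreted signals with most members were Cxcl12, a chemokine (19), Shh, a morphogen (10), and Tgfb2 (9). Among adhesion and guidance genes these were Tenm3 (36), Cadm1 (24) and Slit2 (24). Cadm1, a synaptic adhesion protein, had its 24 in 0.166 Mb of desert with a median score of 76.5, a density of 145 per Mb. For channels and receptors they were Trpc7 (28), Ryr2 (22) and Kcnj2 (21).

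Members stood farther apart than other distal peaks. The median gap to the next shared peak was 2.52 kb in deserts, 1.16 kb in near intergenic sequence and 1.68 kb in gene bodies. No other shared peak lay within 50 kb of 704 members (8.59%), against 1.77% and 1.58% in the other classes. These solitary members had lower scores, with medians of 43 and 27, than the 5742 members with a neighbour within 10 kb (56 and 41). They also held the CTCF letters more often, in 11.1% against 2.35%. The same contrast was present in near intergenic peaks (20.4% against 5.79%) and in gene bodies (16.5% against 4.57%).

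Joined at gaps of up to 10 kb, the members form 4277 runs, of which 2492 are single peaks. The 274 runs of 5 or more hold 22.6% of the members. Outside Firre the largest had 27 members over 60.8 kb at chr8:125330836-125391605, nearest to Sipa1l2, with median scores of 96 and 65. A run of 20 over 57.2 kb on chromosome 17 lies nearest to 1600014C23Rik, with medians of 96.5 and 77. The densest of the 12 largest had 13 members in 6.57 kb at chr6:31215716-31222285, where the noncoding genes Lncpint, a p53-induced transcript, and 2210408F21Rik meet.

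The largest run is in Firre, a noncoding RNA gene of X (chrX:50555744-50635321, minus strand) that takes part in the organisation of the nucleus. Its 37 members span 62.1 kb, 465 per Mb of the gene, on a chromosome whose deserts held 4.30 per Mb. Scores ran from 30 to 106 (median 79) in replicate 1 and from 21 to 88 (median 58) in replicate 2. Sharing of words was rare elsewhere: in the other 11 of the 12 largest runs, at most 2 members shared 16 letters with another place. No Firre member had the exact CTCF or AP-1 letters, a search that misses sites with a mismatch. The YY1 letters AANATGGCG (YY1 is a zinc finger protein that binds promoters and structural elements) were in 9 of the 37, or 24.3%, beside 35 of the other 8158 members, 0.429%, and 0.656% of all shared peaks. The copies are alike in sequence, and how the authors treated reads that map to several places is not given in the sources used here. Firre and the Mir344 locus were singled out after their values were seen.

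Noncoding genes accounted for part of the members. Within 1 kb of a noncoding start site lay 441 members (5.38%), in 1.85% of desert sequence, a density of 30.8 against 10.2 per Mb elsewhere in deserts. They scored higher, with medians of 64 and 48. Of these, 299 were at lincRNA genes and 39 at microRNA genes. Another view is by gene body: 1682 members (20.5%) lay in noncoding genes, which make up 10.6% of desert. After Firre, most were in 3110039I08Rik (33), which spans Mir125b-1, in Gm14005 (33) and in Lncpint (28). Members rich in CpG (GC over 55% and an observed to expected CpG ratio over 0.6) numbered 122 and scored 89 and 83 in the median. The 37 of these at noncoding starts reached 101 and 92.

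Of the 10 highest ranked members, 3 lie within 1 kb of a noncoding start. First in mean rank was chr15:68363356-68363505, 255 bp from the start of the lincRNA gene Gm20732 and 105 kb from Zfat, with scores of 146 and 145 and a GC content of 70%. The second, 125 kb from Ogfrl1 on chromosome 1, scored 146 and 144. The next, with 143 and 146, lies 924 bp from Trerf1, which GENCODE M21 lists as a processed transcript. It was followed by a peak 262 bp from Gm26901 near Pcmtd1 (146 and 142). The fifth lies 237 kb from Myt1l with no noncoding start within 26 kb. Peaks near Cited2, Unc5b, Irf2bp2, Zhx2 and Trib1 complete the first 10. Cited2 encodes a CBP and p300 binding coactivator, and its peak, 699 kb from the gene, is the most remote of the 10.

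Accessible sites stood next to most microRNA hairpins of the Mir344 family. RefSeq places 128 of 1005 hairpins in deserts, and 14 of them have a member within 1 kb of their 5′ end. Of these, 10 belong to Mir344, whose 13 hairpins lie between 61683124 and 62085310 on chromosome 7. The nearest member was centred 23 to 90 bp upstream of the hairpin in all 10. Replicate 1 scores ran from 79 to 123 (median 101), all above the members' upper quartile of 75, and replicate 2 scores from 30 to 110 (median 82). Mir344-2 was highest with 123 and 110. The lowest in replicate 2 was Mir344d-3 with 88 and 30, the only one of the 10 below the replicate 2 median of all members.

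**Figure D4:**
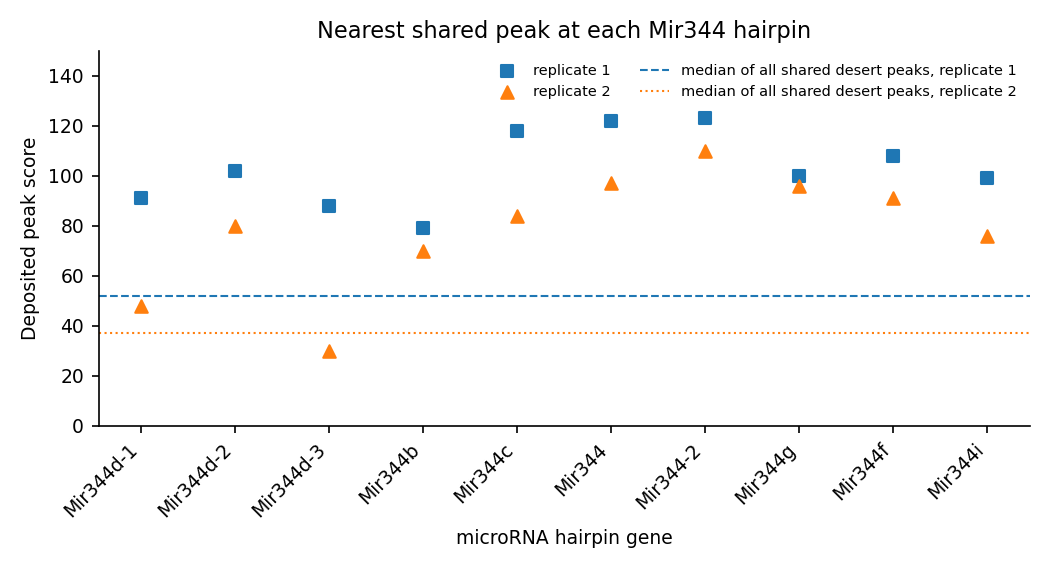
Deposited scores of the shared peak nearest to each Mir344 hairpin, in order along chromosome 7, in replicate 1 (squares) and replicate 2 (triangles); lines give the medians of all members, 52 and 37. Every hairpin is above the replicate 1 line and Mir344d-3 alone is below the replicate 2 line.

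Each of the 10 peaks held CCAATCA at least once, and 5 held it in a pair whose first letters are 44 bp apart, in Mir344c, Mir344-2, Mir344g, Mir344f and Mir344i. Over all members 198 of 8195 (2.42%) held these letters and 14 held them more than once, so the Mir344 locus gives 5 of the 14. Among all shared peaks the share was 2.61%. In the hairpins without a member, Mir344e, Mir344h-1 and Mir344h-2, the 150 bases at the same place also held 1 match each. Replicate 1 had no peak within 1 kb of them, and replicate 2 had 1 at Mir344e and none at Mir344h-1 or Mir344h-2. All peaks of the 10 but those at Mir344b and Mir344-2 overlap the hairpin itself. The copies resemble each other in sequence, so they are not independent examples. How reads that map to several places were treated is not given for this locus either. Whether this bears on the hairpins without a peak was not tested.

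Outside this family, Mir137, a microRNA of neurons, had a member over its hairpin with scores of 101 and 99. Mir125b-1 and Mir667 each had their nearest member 385 bp downstream of the hairpin's 5′ end, with scores of 48 and 33 and of 24 and 21. Mir7214 had 4 members within 1 kb, the nearest at 33 and 27. None of these 4 nearest peaks held CCAATCA.

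The letters of AP-1 and of E-boxes were those found most often in members. AP-1 letters were in 1380 members (16.8%), against 4.70% of windows of the same width 1 kb to each side. In near intergenic peaks the share was 13.95%, in gene bodies 14.8% and in all shared peaks 12.05%. On replicate 2's list of shared desert peaks it was 16.7%. The order turned at higher GC content, with 11.9% in deserts against 12.7% and 12.6% at 55 to 60%, and 5.92% against 8.18% and 8.30% above that. CAGATG was in 21.3% and CAGCTG in 15.2% of members, close to the gene-body shares of 21.1% and 16.4%, and 17.1% and 14.3% of all shared peaks.

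CTCF letters were scarcer in deserts. They were in 273 members (3.33%) against 0.409% of flanking windows, and in 6.70% of near intergenic, 5.32% of gene-body and 4.50% of all shared peaks. Flanking windows differed in the same order, with 0.950% beside near intergenic and 0.671% beside gene-body peaks. The share in peaks divided by that in flanks was 8.15 for members, 7.05 for near intergenic and 7.93 for gene-body peaks. For the peaks, replicate 2's list gave 3.31%, 6.73% and 5.31% for the 3 distal classes. The order held in each of 3 score classes (lower, middle and upper, equal in size over all shared distal peaks), with 3.06%, 3.803% and 3.23% in deserts against 5.08%, 6.67% and 8.07% in near intergenic peaks. It also held in every band of GC content against near intergenic peaks, but not against gene bodies at a GC content of 60% or more (2.66% in deserts and 2.28% in gene bodies).

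**Figure D5:**
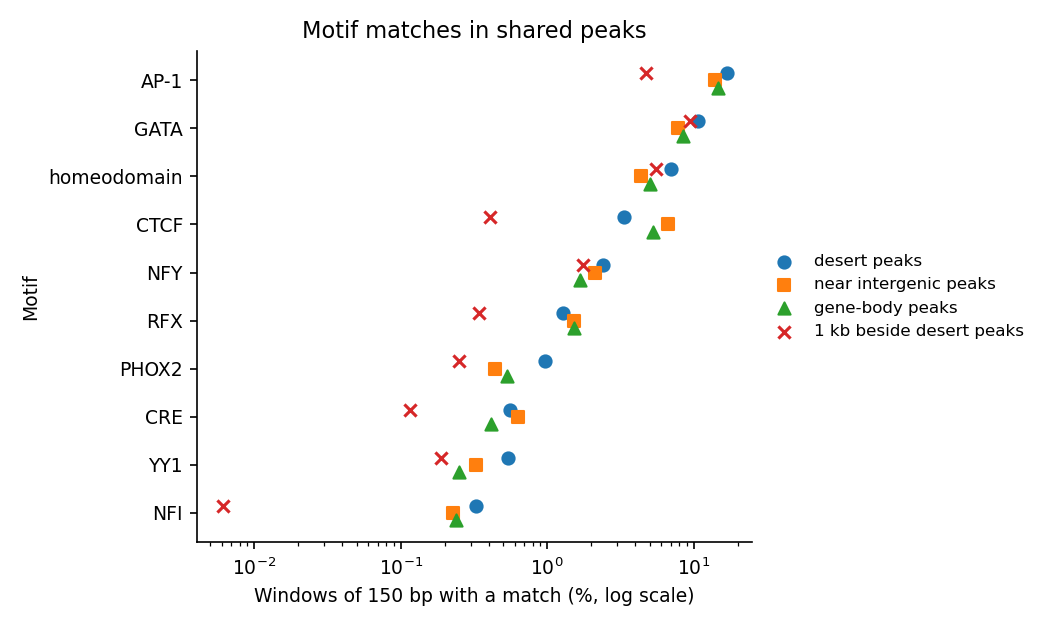
Percentage of 150 bp windows with a match (log scale) for 10 motifs in shared desert, near intergenic and gene-body peaks, and in windows 1 kb to each side of desert peaks (crosses). CTCF is lower in deserts (3.33%) than in the other classes and PHOX2 is higher (0.964%). Flanking windows, drawn only for desert peaks, differ between the classes in the same order for both motifs. The share in peaks divided by that in flanks was highest in deserts for both.

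PHOX2 letters were in 79 members (0.964%), in 0.439% of near intergenic, 0.534% of gene-body and 0.418% of all shared peaks. On replicate 2's list the shares were 0.779%, 0.367% and 0.471%. Members had a median GC content of 48.7%, against 51.3% for the other shared distal peaks. For the PHOX2 letters, flanking windows differed in the same order (0.2502% in deserts, 0.165% and 0.200% in the others). The share in peaks divided by that in flanks was 3.85 for members, 2.66 for near intergenic and 2.68 for gene-body peaks. Within bands of GC content the shares were 3.66% against 2.38% and 2.12% below 40%, 1.77% against 1.21% and 1.59% at 40 to 45%, and 0.719% against 0.478% and 0.594% at 45 to 50%. At 60% or more no member had a match, against 0.0899% and 0.0245%. For the plain homeodomain letters TAATTA the members had 7.02%, against 4.39% and 5.01%, and here too flanks differed, with 5.50% in deserts. GATA letters AGATAA, in 10.8% of members, were hardly above their flanks at 9.38%.

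Rarer letters marked few members. RFX letters were in 106 (1.29%), CRE in 46 (0.561%) and NFI in 27 (0.329%), beside 1.47%, 0.778% and 0.197% of all shared peaks. SOX and MEF2 letters, AACAATG and CTANNNNTAG, were less frequent in members (1.89% and 1.71%) than in the flanks (2.54% and 2.48%).

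Members were unevenly spread over chromosomes. Chromosome 13 had 851, or 22.6 per Mb of desert, more than any other chromosome, and its ratio to other distal peaks per Mb, 0.53, was also the highest. Chromosome 9 followed with 17.0 and chromosome 19 with 15.4 per Mb. The X, where other distal peaks stood at 11.3 per Mb, had 4.30. On chromosome 11 deserts held 7.80 per Mb and other distal sequence 71.7, the lowest ratio at 0.109. The replicate 1 list there overlapped replicate 2 in 35.9% of desert peaks. How many copies of each chromosome the line carries was not analysed here.

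The line's label was set beside promoter peaks of marker genes. A peak shared by both libraries was within 1 kb of a start site for 4 of 4 pan-neuronal genes and for 4 of 6 motor neuron genes (not Mnx1 and Slc5a7). It was present for Gfap of 3 glial genes, for 2 of 3 mesenchymal genes and for none of 3 blood genes. Deserts also depend on the annotation. RefSeq, on the same assembly, places a coding gene over 85 members (1.04%), Trerf1's region among them, and within 100 kb of 1382 (16.9%).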

How the data were processed

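DNase-seq of 1 mouse cell line was analysed from a peak list and a hotspot list per library, both on mm10. The deposited lists were made by the authors from the filtered alignments of each library separately, per the file headers; aligner, peak caller and calling threshold: not given in the sources used here. Each peak's score, made by the authors, runs from 1 to 150 with no stated normalization. Peaks were ranked by it within a library, and scores as deposited are also given, separately for each library. Hotspots carry a q-value on the −log10 scale, as deposited by the authors, with a lowest value of 1.30 and a cap of 100, so strong hotspots cannot be ranked. Read depth is unknown and limits the precision of every count of peaks.

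Repeated rows were dropped (43 and 20). Distances used the 93145 start sites of 21755 coding genes of GENCODE M21, densities 1 kb bins outside assembly gaps, and sequence GRCm38. Motifs (29) were searched as exact letters on both strands over the 150 bp and over windows 1 kb to each side. Interval and motif functions were tested on simulated data. Tools were Python 3.11.15 with numpy 2.4.6, pandas 2.3.3, scipy 1.17.1, pysam 0.24.0 and samtools 1.23.1.

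The members, gene lists, motifs and rules were chosen with earlier results of these data known. Items were named by rule: the 10 members highest in mean rank, the 10 deserts with most members, the 5 densest of 500 kb or more with at least 5 members, the 5 longest without one, the 5 most remote members, the 3 genes per family nearest to most members, the best member per motif (that of AP-1 is not reported here), and the 5 peaks on each side of the limit. Firre, Mir344 and the runs were added after their values were seen. Both libraries enter every value, so no test between conditions was made. Alternatives changed the distance, the annotation, the overlap, the list, the score range, the dense blocks, the motif window and the library left out.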

Additional observations from a re-analysis of the deposited data

How the results depend on the processing

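Counts and densities of members depend on the rule's settings. The alternatives were run for the number, share, density and overlap of members, the CTCF and AP-1 shares and the transcription factor ratio. Desert next to transcription factor genes stayed the denser in every alternative run for that ratio. The CTCF and AP-1 shares were taken here in deserts only. Their order against the other classes was therefore not checked in these alternatives, apart from replicate 2's list. A distance of 50 kb gave 14203 members, 12.4% of shared peaks and 14.5 per Mb, with CTCF letters in 3.88% and a ratio of 1.38 between desert next to transcription factor genes and other desert (1.66 as reported). A distance of 250 kb gave 2899, 2.54%, 6.20 per Mb, 41.4% of desert peaks overlapping the other library, CTCF in 3.04% and a ratio of 2.18. With genes of every biotype there were 1093 members, 0.957%, 6.14 per Mb, 39.2% overlapping, CTCF in 2.93%, AP-1 in 15.5% and a ratio of 2.76. The higher-scoring 50% of each list gave 3333, 4.96%, 4.30 per Mb and 68.2% overlapping. Replicate 2's list had 63.4% overlapping. An overlap of 75 bp put CTCF at 3.67%, and the central 100 bp of the peaks put CTCF at 3.09% and AP-1 at 12.8%. Taking every desert peak of a single library gave 12966 to 15879 peaks, 7.97% to 9.33% of all, 16.7 to 20.5 per Mb, CTCF in 2.25% to 2.59%, AP-1 in 13.1% to 14.8% and ratios of 1.49 to 1.66; this ends the requirement that a peak be shared. Leaving out the dense blocks moved none of these values by more than the spread between libraries or the counting interval. Other causes of these shifts were not tested. Unknown depth and a score without a stated normalization limit any comparison of the libraries, and exact letters miss sites with a mismatch.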

Other observations

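Desert peaks found in 1 library held the letters of CTCF, AP-1 and the E-box CAGCTG less often than members did. CTCF letters were in 1.80% of the replicate 1 desert peaks without a partner and in 0.422% of those of replicate 2, against 3.33% of members. For AP-1 the values were 9.08%, 11.5% and 16.8%, and for the E-box CAGCTG 8.81%, 12.2% and 15.2%. GATA letters went the other way in replicate 1, with 11.8% against 10.8%. They were not alone in this. SOX letters were in 2.69% (replicate 1) and 2.23% (replicate 2), against 1.89% of members. NFI letters were in 0.780% in replicate 2 but 0.156% in replicate 1, against 0.329%. TAATTA and MEF2 letters were also more frequent in the replicate 1 peaks. The peaks without a partner scored lower than members, with medians of 24 and 18 against 52 and 37. Of the 7684 unpartnered replicate 1 desert peaks, 5.77% lay in a hotspot of replicate 2.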
